A study of Drosophila melanogaster with 3 samples.

Results

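The aminoacyl-tRNA synthetase genes are described here as binding sites of GFP-tagged CG17186 in fly embryos. Members were the protein-coding genes whose symbol holds a 3-letter amino acid name followed directly by RS, with or without the ending -m for the mitochondrial enzyme. This rule took 35 of the 13945 protein-coding genes on the 6 chromosome arms, 20 of them cytosolic and 15 mitochondrial. GluProRS, a fused enzyme, covers glutamate and proline in the cytosol. No symbol ending in -m was found for glutamine, glycine, histidine, lysine or threonine. Members without this ending are called cytosolic by symbol alone, and whether any of them also serves the mitochondrion was not examined. The cytosolic enzyme for phenylalanine has 2 genes, alpha-PheRS and beta-PheRS, which encode its subunits.

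CG17186 is an uncharacterized Drosophila melanogaster protein. ChIP-seq was made from whole embryos of mixed sex, aged 0 to 14 h, of 1 transgenic line that stably carries CG17186 with GFP at its C-terminus, and the protein was recovered with an antibody against GFP. There were 3 biological replicates and 1 group, so every sample carries the transgene, and binding in single tissues or ages cannot be told apart. The authors deposited a relaxed list of peaks for each replicate (30000, 26139 and 30000 peaks for replicates 1, 2 and 3), a list from the pooled replicates (23428) and a reproducible set of 3814 peaks. The reproducible set is made of the strongest pooled peaks, down to a signal of 109.3. A gene is called bound when a peak summit of the reproducible set lies within 500 bp of any of its transcription start sites (TSSs). The relative signal of a peak is its signal in a replicate divided by the median of that replicate over the 3758 reproducible peaks shared by all 3 lists, given as mean ± SD over the 3 replicates. The signal is the authors' own value and its scale is that of an unnamed peak caller. The sequencing depth is unknown because the lists hold no read counts.

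Aminoacyl-tRNA synthetases join each amino acid to its own transfer RNA, the step that fixes the reading of the genetic code. For many amino acids, but not all, animal cells keep separate enzymes in the cytosol and in the mitochondrion, both encoded in the nucleus. In mammals several of the cytosolic enzymes sit together in a multi-synthetase complex. They are needed in all growing cells, and the fly embryo uses them to make protein before and after its own genome becomes active.

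Sequences under the summits are printed for 6 bound members. They were chosen to show the strong site at ArgRS-m, an example of each of 3 known promoter words (TrpRS, beta-PheRS and LeuRS), and 2 of the members with the word CAGCAC at the summit (MetRS-m and AsnRS). Other members with these words are named further on. Each runs from 50 bp before the summit to 50 bp after it in the direction of the gene, shortened where an annotated exon begins. The sequences come from the dm6 reference genome. Their positions are chr3R:7886972-7887044 on the plus strand for ArgRS-m, chr3R:9266905-9266987 on the minus strand for TrpRS, chr3R:24252680-24252740 on the minus strand for beta-PheRS, chr3R:14259992-14260070 on the minus strand for MetRS-m, chr2L:19131955-19132027 on the minus strand for AsnRS and chr2L:3514657-3514728 on the minus strand for LeuRS. Capitals mark TATCGATA in TrpRS, GGTCACACT on the opposite strand in beta-PheRS, CAGCAC in MetRS-m and AsnRS, and TATAAA in LeuRS. The ArgRS-m sequence held none of the words searched within the stretch shown.
ArgRS-m: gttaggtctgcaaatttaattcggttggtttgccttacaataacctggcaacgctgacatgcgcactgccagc
TrpRS: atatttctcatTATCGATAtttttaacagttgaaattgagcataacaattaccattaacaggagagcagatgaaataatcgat
beta-PheRS: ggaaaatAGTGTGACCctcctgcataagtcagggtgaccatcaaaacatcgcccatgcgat
MetRS-m: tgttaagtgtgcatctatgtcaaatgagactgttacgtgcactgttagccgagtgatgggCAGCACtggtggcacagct
AsnRS: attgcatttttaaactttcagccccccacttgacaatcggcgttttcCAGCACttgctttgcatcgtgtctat
LeuRS: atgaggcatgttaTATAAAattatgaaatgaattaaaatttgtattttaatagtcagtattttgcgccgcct
The 6 sequences differ from each other. They were chosen to show different words, so the lack of a searched word common to all of them is not a result.

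Of the 35 synthetase genes, 17 were bound in the reproducible set, which is 48.6% (exact 95% interval 31.4 to 66.0), beside 28.0% of all protein-coding genes. The cytosolic genes account for most of these. Of the 20 cytosolic genes, 14 were bound, which is 70.0% (45.7 to 88.1), and of the 15 mitochondrial genes 3 were bound, which is 20.0% (4.33 to 48.1). The bound cytosolic genes were ArgRS, AsnRS, AspRS, GlnRS, GluProRS, HisRS, IleRS, LeuRS, LysRS, MetRS, SerRS, TrpRS, alpha-PheRS and beta-PheRS. The bound mitochondrial genes were ArgRS-m, MetRS-m and PheRS-m. The unbound cytosolic genes were AlaRS, CysRS, GlyRS, ThrRS, TyrRS and ValRS. The intervals cover the number of genes only. Genes are not replicates, so the groups are set side by side with no test.

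In the relaxed lists nearly every synthetase promoter held a summit. The pooled list had one at 34 of 35 members, all 20 cytosolic and 14 of 15 mitochondrial, beside 55.2% of all coding genes. GluRS-m, the mitochondrial enzyme for glutamate, was the member with none, in the pooled list and in each replicate. Its gene lies 171 bp downstream of TyrRS on the same strand. Replicate 1 had a summit at 34 members beside 57.6% of coding genes, replicate 2 at 29 beside 51.9%, and replicate 3 at 32 beside 57.3%. All 20 cytosolic genes had a summit in each of the 3 replicates. The mitochondrial genes had 14, 9 and 12 in replicates 1, 2 and 3, and 8 of 15 had one in all 3. Together 28 members had a summit in all 3 replicates, which is 80.0%, beside 42.4% of coding genes. The relaxed lists include background by design, so a summit there is not counted as binding here.

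**Figure D1:**
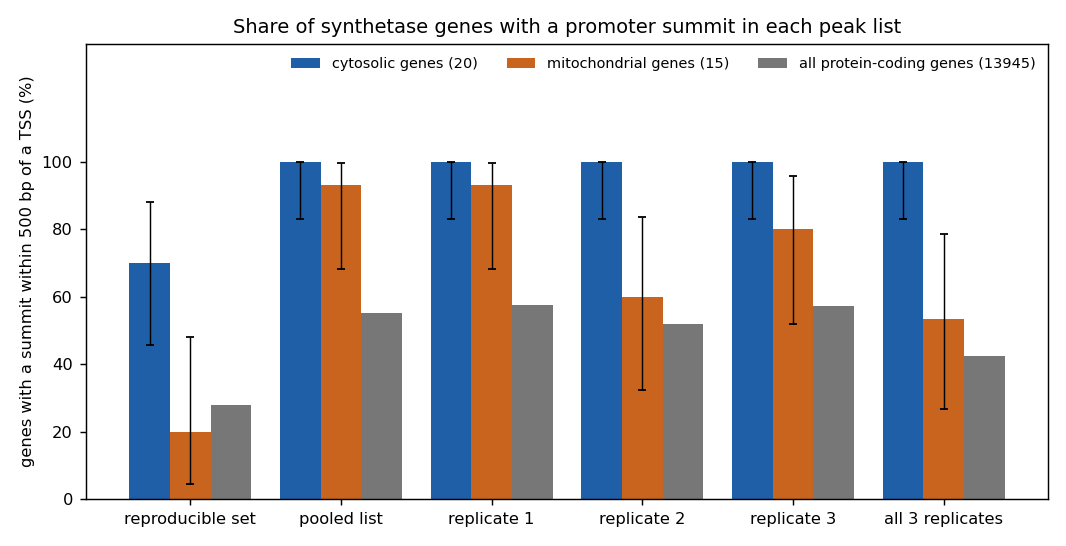
Share of cytosolic (20) and mitochondrial (15) synthetase genes and of all 13945 protein-coding genes with a summit within 500 bp of a TSS, in percent, in each peak list. Bars start at 0 and lines give the exact 95% interval over genes. The cytosolic bars reach 100% in every relaxed list and 70.0% in the reproducible set, where the mitochondrial bar is at 20.0%.

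PheRS-m stood far above every other synthetase gene. It encodes the mitochondrial phenylalanyl-tRNA synthetase, which in animals works as a single chain. Its peak spans 13967836 to 13968852 on 2R (dm6), a width of 1017 bp, and its summit was 54 bp upstream of the gene, outside annotated exons. The relative signal was 81.1, 66.9 and 82.5 in replicates 1, 2 and 3 (76.9 ± 8.64, n = 3). The peak ranked 2 in the reproducible set and 2, 5 and 2 in the replicates. The replicate summits lay within 2 bp of the pooled one. No other coding gene has a TSS in this window. The nearest gene upstream, CtsL1, a cathepsin protease gene, lies 326 bp away on the same strand.

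ArgRS-m, the mitochondrial arginyl-tRNA synthetase, came next. Its relative signal was 2.77, 2.91 and 2.44 (2.71 ± 0.237), and it ranked 179. PheRS-m exceeded it by 29.3, 23 and 33.8 times in replicates 1, 2 and 3 (28.7 ± 5.39). The summit of ArgRS-m lies 23 bp upstream of its TSS and 289 bp upstream of the TSS of CG17816, which runs the other way. The replicate summits lay within 12 bp of the pooled one. MetRS-m, the mitochondrial methionyl-tRNA synthetase, was weaker, at 1.04, 0.523 and 0.979 (0.846 ± 0.281), and its summit was 29 bp upstream. Replicate 2 was the low one of the 3 for MetRS-m. So the bound mitochondrial genes hold the strongest synthetase peak, the next one, and one among the weakest.

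The 14 bound cytosolic genes formed a narrow band around the median shared peak, with mean relative signals from 0.716 to 1.33 and a median of 1.1. The highest was GlnRS, the glutaminyl-tRNA synthetase, at 1.52, 0.798 and 1.67 in replicates 1, 2 and 3 (1.33 ± 0.466). SerRS, the seryl enzyme, had 1.63, 1.27 and 1.01 (1.30 ± 0.312). AspRS, the aspartyl enzyme, had 1.10, 1.79 and 0.842 (1.25 ± 0.49), at 39.3% of the mean the widest relative spread of the 17. The replicate summits of AspRS lay at 161, -20 and -130 bp from the pooled one (negative is upstream), so they may not be the same peak. These 3 genes overlapped in range, and the replicate that was lowest for GlnRS was the highest for AspRS. IleRS, the isoleucyl enzyme, had 1.17, 1.27 and 1.16 (1.20 ± 0.0589). HisRS, the histidyl enzyme, had 0.973, 1.33 and 1.18 (1.16 ± 0.18). GluProRS had 1.05, 1.24 and 1.19 (1.16 ± 0.0987). SerRS, IleRS and GluProRS were above 1 in every replicate.

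TrpRS, the tryptophanyl enzyme, had 1.14, 0.955 and 1.30 (1.13 ± 0.172). ArgRS, the cytosolic arginyl enzyme, had 0.738, 1.14 and 1.33 (1.07 ± 0.303). For both of these genes replicate 3 was the highest. The subunits of the cytosolic phenylalanyl enzyme had similar levels on different chromosomes. beta-PheRS had 0.911, 0.956 and 1.01 (0.958 ± 0.0486) and alpha-PheRS had 0.682, 0.82 and 1.16 (0.888 ± 0.247), with overlapping ranges. LysRS, the lysyl enzyme, had 0.764, 0.86 and 1.13 (0.918 ± 0.189). AsnRS, the asparaginyl enzyme, had 0.9, 0.749 and 0.742 (0.797 ± 0.0891). MetRS, the cytosolic methionyl enzyme, had 0.816, 0.471 and 0.933 (0.74 ± 0.24), with replicate 2 the low one as at MetRS-m. LeuRS, the leucyl enzyme, was the weakest of the 17 at 0.702, 0.722 and 0.723 (0.716 ± 0.012) and also the most even. LeuRS, MetRS and AsnRS were below 1 in every replicate.

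**Figure D2:**
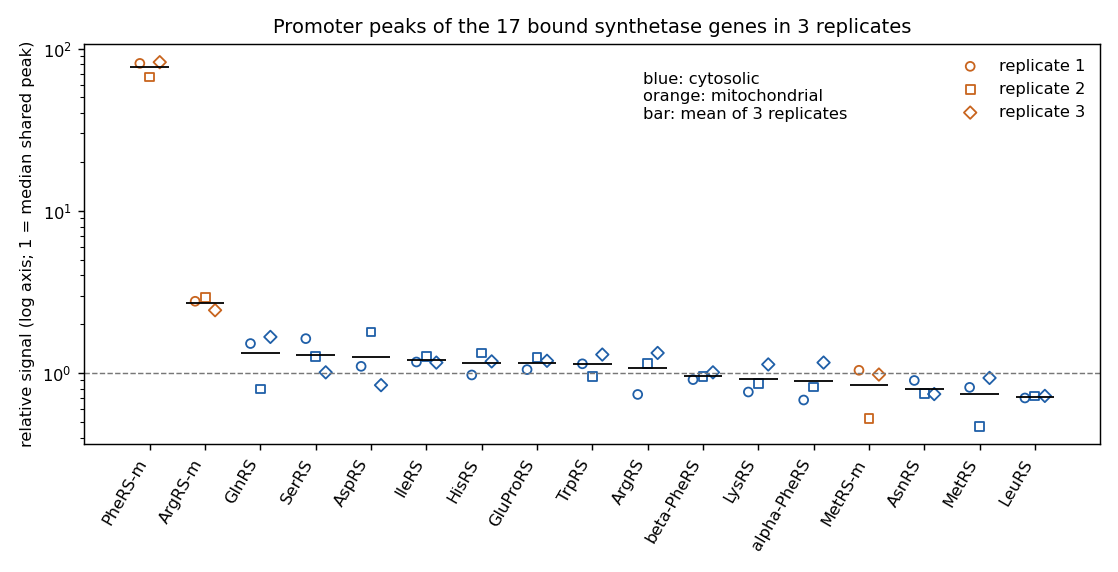
Relative signal of the strongest promoter peak of each of the 17 bound synthetase genes in replicates 1, 2 and 3 on a log axis, where 1 is the median shared peak of that replicate. Circles, squares and diamonds are the replicates, bars their mean, blue cytosolic and orange mitochondrial genes. PheRS-m lies between 66.9 and 82.5, ArgRS-m between 2.44 and 2.91, and the other 15 spread around 1.

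Ordered by mean relative signal, 2 of the 16 neighbouring pairs had ranges over the replicates that did not overlap. These were PheRS-m above ArgRS-m, and ArgRS-m above GlnRS, where the ratio was 1.83, 3.64 and 1.46. The other 14 pairs overlapped, so the order from GlnRS down to LeuRS is not resolved. A comparison of 3 values with 3 cannot go below an exact two-sided p of 0.1, and none was tested. The coefficient of variation over replicates had a median of 15.5% for the bound members and 19.4% over the 2662 reproducible peaks at coding promoters.

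Apart from PheRS-m and ArgRS-m, the bound synthetase genes had peaks near the median of bound promoters. The median relative signal of the 17 was 1.13, beside 1.03 over the strongest peaks of all bound coding genes, and the median rank was 1512 beside 1687. Of the 17, 1 ranked in the first 100 of the reproducible set (5.88%, beside 3.35% of all bound coding genes). A further look down the list gave 2 in the first 500 (11.8% beside 15.7%) and 4 in the first 1000 (23.5% beside 30.6%). These shares are near those of all bound coding genes.

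The unbound members sat below the reproducible threshold rather than at 0. Of the 18, 17 had a pooled summit in the window, with a signal from 38.06 at IleRS-m to 103.2 at AlaRS and a median of 69.07. The strongest pooled peaks of all coding genes with one, bound or not, had a median of 111. The median over every peak of the pooled list, a different measure, was 47.7. AlaRS, the alanyl enzyme, and ThrRS, the threonyl enzyme, lay just under the threshold of 109.3, at 103.2 and 102. LeuRS was the weakest just above it, at 123.9. The strongest peak in the window of AlaRS ranked 4914, 4318 and 2625 in replicates 1, 2 and 3. That of ThrRS ranked 4227, 2456 and 20314, so replicate 3 was far lower than the others there. Its summits lay at -263, -106 and 95 bp from a TSS in replicates 1, 2 and 3 (negative is upstream), so they may not be the same peak. CysRS-m, the mitochondrial cysteinyl enzyme, was the next at 98.62 and ranked 3178, 4368 and 5836. The other unbound cytosolic genes were GlyRS at 78.19, CysRS at 71.85, ValRS at 68.56 and TyrRS at 66.85. Their replicate summits were scattered too, as at ValRS, where they lay at 14, -492 and 368 bp from a TSS in replicates 1, 2 and 3.

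Among the unbound mitochondrial genes, TrpRS-m had a pooled signal of 91.71, LeuRS-m 86.77 and AsnRS-m 72.97. TyrRS-m had 69.07, AspRS-m 67.76 and ValRS-m 64.97. The lowest were AlaRS-m at 62.2, ProRS-m at 60.84, SerRS-m at 46.3 and IleRS-m at 38.06. A summit at IleRS-m was listed in replicate 1 alone, 460 bp downstream of the TSS. LeuRS-m had the nearest reproducible summit outside the window, at 828 bp with a signal of 180, followed by AlaRS at 1077 bp with 188.9.

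Across all members with a pooled summit, the median signal was 160.2 for the 20 cytosolic genes and 71.02 for the 14 mitochondrial genes, beside 111 for all coding genes with one. The replicates gave the same order. The median rank of the strongest promoter peak was 2770, 2502 and 1980 for cytosolic genes and 6915, 4506 and 5115 for mitochondrial genes in replicates 1, 2 and 3, where a low rank is a strong peak. All coding genes with a peak had medians of 4060, 3583 and 4286. In each replicate the cytosolic median was stronger, and the mitochondrial median weaker, than that of all coding genes.

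Enzymes for the same amino acid could be set side by side in 16 pairs, counting both subunits for phenylalanine and GluProRS for glutamate and proline. In the pooled list the cytosolic gene had the stronger peak in 9 pairs (Ala, Asn, Asp, Ile, Leu, Pro, Ser, Trp and Val). The mitochondrial gene was stronger in 6 (Arg, Cys, Met, Tyr and both pairs of Phe), and for Glu the mitochondrial gene had no summit. Large gaps towards the cytosol were seen at Ile, with 203.6 for IleRS and 38.06 for IleRS-m, and at Ser, with 230.3 for SerRS and 46.3 for SerRS-m. The gap at Val was small, 68.56 and 64.97, as it was at Tyr, 66.85 and 69.07. The counts moved between replicates, from 9 and 6 in replicate 1 to 5 and 5 in replicate 2 and 7 and 6 in replicate 3, the rest being pairs with a missing peak. In at least 1 replicate the direction turned at Asn, Cys, Tyr and Val. At Asn this was replicate 3, where AsnRS-m had a signal of 55.49 and AsnRS 48.65. At Arg, Met and Phe the mitochondrial gene was higher in all 3 replicates.

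**Figure D3:**
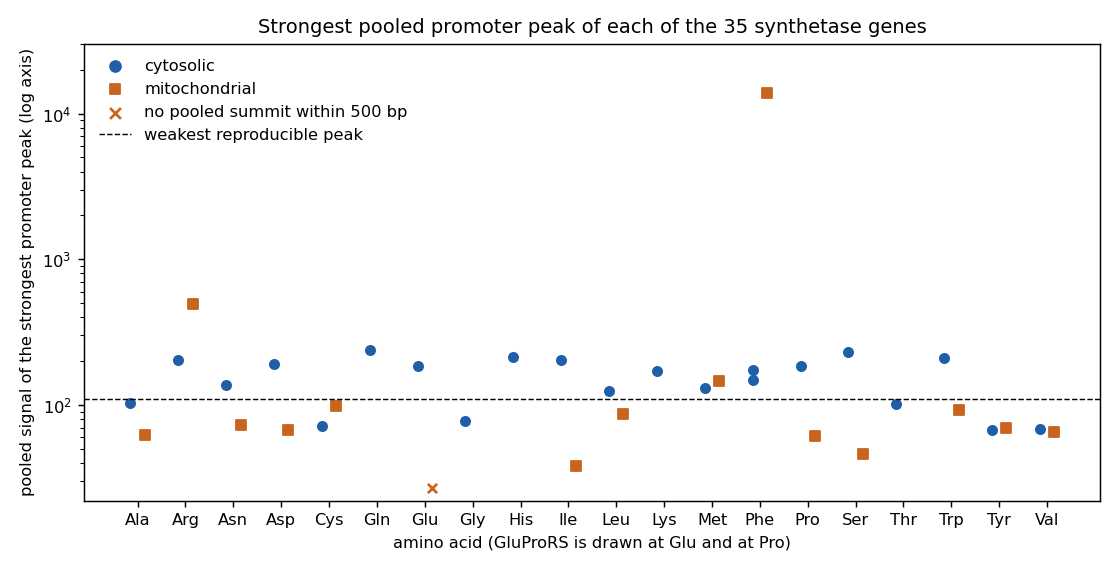
Pooled signal of the strongest promoter peak of each synthetase gene on a log axis, by amino acid, with cytosolic genes as blue circles and mitochondrial genes as orange squares. The dashed line is the weakest reproducible peak (109.3) and the cross marks GluRS-m, which has no pooled summit. PheRS-m, at 13799, lies far above the other members.

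Summits at bound synthetase genes lay close to the start of the gene. The median position was 54 bp upstream of the nearest TSS of the member, beside 75 bp for all bound coding genes, and 12 of 17 lay within 100 bp (70.6% beside 56.8%). Of the 17, 15 lay upstream and 2 downstream, SerRS at 25 bp and LysRS at 11 bp, both inside annotated exons. The farthest was AspRS, 217 bp upstream of an internal start site of that gene. AspRS also had a weaker summit 12 bp upstream of an internal start site, at rank 2629, which overlapped the same replicate peaks. The largest distance from a replicate summit to the pooled summit was 2 bp at PheRS-m and 12 bp at ArgRS-m. For the other 15 members it ran from 10 to 161 bp with a median of 53, beside 44 over coding promoter peaks.

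Most synthetase genes share their promoter region with a neighbour. Another coding gene starts on the opposite strand within 1000 bp upstream at 24 of 35 members, which is 68.6%, beside 36.2% of all coding genes. Of these head-to-head members 14 were bound (58.3%), beside 52.3% of all head-to-head coding genes, and of the other 11 members 3 were bound (27.3%), beside 14.2% of the other coding genes. The share bound among head-to-head members is near that of head-to-head genes in general. By compartment the shares differed. Among head-to-head genes, 13 of 17 cytosolic members were bound and 1 of 7 mitochondrial members, ArgRS-m. The 3 bound members without such a neighbour were PheRS-m, MetRS-m and beta-PheRS, and for these 3 no other coding TSS lay within 500 bp of the summit.

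At the other 14 bound members the summit also lies within 500 bp of another coding gene, so the peak cannot be given to the synthetase alone. The start of the other gene was the nearer one at 4 members. GlnRS had its summit 70 bp from its own TSS and 53 bp from that of RIOK2, a kinase of ribosome maturation. GluProRS had 149 bp and 111 bp for AP-1sigma, a clathrin adaptor subunit, and MetRS had 127 bp and 118 bp for CG15084. AspRS had 217 bp and 163 bp for Nmda1. At the rest the synthetase was nearer or level. TrpRS was 33 bp from its summit and Vps16A, a vesicle tethering subunit, 82 bp. IleRS was 170 bp away and Hem, a WAVE complex subunit, 300 bp. HisRS starts at the same base and on the same strand as an annotated transcript of Bx, a LIM-domain protein gene, so their 61 bp are the same.

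**Figure D4:**
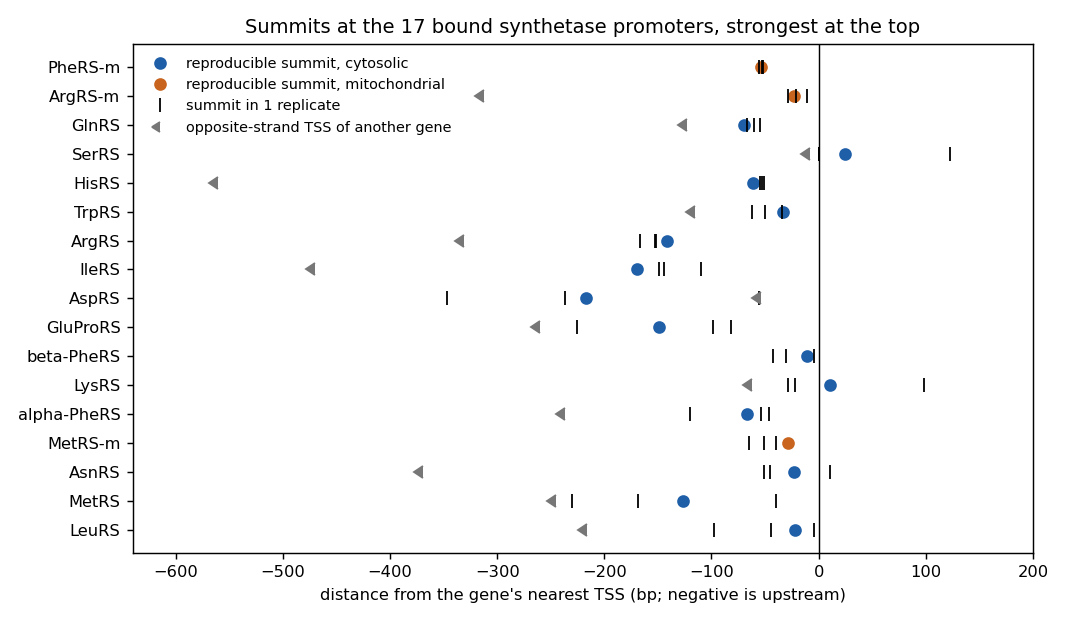
Position of the summit at each of the 17 bound synthetase genes relative to the nearest TSS of that gene, in bp with upstream to the left. Dots are reproducible summits (blue cytosolic, orange mitochondrial), short lines the summits in the 3 replicates, and triangles the start of a gene on the opposite strand. The replicate lines at PheRS-m fall within 2 bp of the dot, while those at AspRS reach 161 bp.

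Short words of known promoter and insulator factors were looked for at the strongest summit of each bound synthetase gene. No word was found at more than 4 of the 17. Both strands were read within 50 bp of the summit and, for comparison, at all 3814 reproducible summits and in windows of 101 bp centred 50 bp upstream of each coding gene. ATCGATA, the core shared by the words of DREF and BEAF-32, was found at 1 of 17 bound members, TrpRS (5.88%), beside 15.2% of all summits and 12.3% of all promoter windows. TATCGATA and ATCGATAG both contain ATCGATA. The first was also at TrpRS (7.94% of all summits), and the second at none of the 17 strongest summits (8.15% of all summits). The weaker summit of AspRS, at rank 2629, held all 3 of these words, so that 2 of the 17 members have the shared core at a reproducible summit when every summit is read. GGTCACACT, the core of the word of M1BP, was found at beta-PheRS (4.93% of all summits). CANCNCTA, part of a core promoter word, was found at ArgRS (9.31%), and CAGGGCTG, the word of ZIPIC, at none (2.36%). CAGCTG, an E-box, was found at ArgRS-m and MetRS-m (11.8%, beside 8.39%). TATAAA, the core of the TATA box, was found at SerRS, alpha-PheRS, MetRS-m and LeuRS (23.5%, beside 13.4% of summits and 20.2% of promoter windows). It was read at any place in the window, and at alpha-PheRS it lay on the strand opposite to the gene. At LeuRS its centre lay 34.5 bp upstream of a summit that itself was 22 bp upstream of the TSS. A match is therefore not called a TATA box here. In the promoter windows of all 35 members, the DREF and BEAF-32 core was found at 6 (17.1%, beside 12.3% of all coding genes): AlaRS, ArgRS, AspRS-m, IleRS, MetRS and TrpRS. The E-box word was found in 8 of these windows (22.9%, beside 7.68%). Of the 8, 5 belong to unbound members (AlaRS-m, CysRS, TrpRS-m, TyrRS and TyrRS-m). The TATA word was found in 7 (20.0%, beside 20.2%), 3 of them at unbound members. With so few members, 1 gene moves each share by several percentage points.

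AACAGCAC, a word known from an earlier look at these peaks, was found at PheRS-m and at no other bound member (5.88%, beside 1.97% of all summits and 0.774% of promoter windows). Its centre lies 10.5 bp downstream of the summit of PheRS-m, on the strand of the gene. The shorter CAGCAC, which AACAGCAC contains and which was added after the sequences were read, was found at PheRS-m, MetRS-m and AsnRS (17.6%, beside 9.49% of all summits and 6.19% of promoter windows). Its centre was 0.5 bp from the summit at AsnRS and 12.5 bp from it at MetRS-m. Of its 3 carriers, PheRS-m had the highest relative signal of the bound members, while MetRS-m and AsnRS were among the weaker ones. In the promoter windows of all 35 members CAGCAC was found at 5 (14.3%): AsnRS, GlyRS, IleRS, MetRS-m and PheRS-m, of which GlyRS is unbound. The word was picked after these sequences were read, so a share above that of all summits is not a result. With 17 sites, each site is 5.88% of the total, and these shares are descriptions only.

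The related genes of transfer RNA metabolism were counted in the same way, beside the same 28.0% of coding genes. Among partners of the synthetases, charging quality control and the carriers of charged transfer RNA, 6 of 13 were bound (46.2%). The strongest was eEF1gamma, a subunit of the elongation factor that reloads eEF1A, at 38.6 ± 1.27 and rank 14, followed by AIMP1, a scaffold of the mammalian synthetase complex, at 1.54 ± 0.277. GatB, a subunit of the mitochondrial amidotransferase that makes glutaminyl-tRNA, had 1.42 ± 0.403 and eEF1alpha1, which delivers charged transfer RNA to the ribosome, 1.28 ± 0.338. The summits of AIMP1 and GatB, unlike those of eEF1gamma and eEF1alpha1, also lay within 500 bp of another coding gene's TSS. Slimp, a fly relative of SerRS-m outside the symbol rule, was not bound.

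Genes of transfer RNA processing and modification were bound at 18 of 29 (62.1%), beside the same 28.0%. At most of the 18 the summit also lay within 500 bp of another coding gene's TSS. Those peaks cannot be given to the listed gene alone. How many of the listed genes are head-to-head genes was not counted. RluA-1, a pseudouridine synthase gene, had a relative signal of 2.41 ± 0.555, wuho, a subunit of a tRNA methyltransferase, 1.52 ± 0.362, RtcB, the tRNA ligase, 1.42 ± 0.15, and Elp6, of the Elongator complex, 1.41 ± 0.162. Genes of RNA polymerase III and its factors were bound at 6 of 17 (35.3%), near the background, and most of these summits were shared in the same way. Among these, Bdp1 and Brf, which recruit the polymerase, had 1.83 ± 0.455 and 1.82 ± 0.217, Polr3A, the largest subunit, 1.23 ± 0.204 and Polr3E 1.02 ± 0.385. All but eEF1gamma lie in the range of ArgRS-m and below.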

How the data were processed

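ChIP-seq peak lists of 3 biological replicates in 1 group were analysed. Per the deposited read-me tables, the authors called relaxed peaks on each replicate and on the pooled replicates against a control, and took the reproducible set by the irreproducible discovery rate. Which aligner, caller and threshold were used is not given in the sources used here. Column 7 is the signal the authors deposited, and column 9 the deposited −log10 q-value, which entered no test. Depth is unknown, and the control was not analysed here.

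Gene models were those of Ensembl release 115 (FlyBase 6.54), and sequences came from the dm6 genome (release 6). Every TSS of a gene counted. Replicate peaks were matched at an overlap of at least 1 bp, and the strongest was kept. Intervals are exact Clopper-Pearson 95% intervals and cover the count of genes only. With 1 group, no control samples and members that are not replicates, no test was run. All members are named. Other genes are named where they share a member's summit or are among the 4 strongest bound of a related list. Of the related lists, 3, 5 and 1 symbols found no match. The members, lists and words were chosen with earlier results of these data known. Alternatives were the window, the TSS choice, the peak list, the divisor, the overlap, the word window and leaving out a replicate. The dm3 set was matched to dm6 pooled peaks by chromosome and signal within 1%, with no change of coordinates. Python 3.11.15, pandas 2.3.3, numpy 2.4.6 and scipy 1.17.1 were used. The counting was tested on simulated peaks.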

Additional observations from a re-analysis of the deposited data

How the results depend on the processing

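A value was labelled the same when it differed from the main one by a ratio of at most 1.5, so a labelled value need not be equal. Over 139 comparisons, 115 were labelled the same and 24 moved. Of the 139, 85 concern the relative signal of a single member, and 68 of these were labelled the same. With summits of the looser pooled list, not counted as binding above, the members rose from 17 to 34 (beside 55.2% of all coding genes). The mitochondrial members rose from 3 to 14. With the strongest peaks of replicate 3 the mitochondrial count was 5, and with those of replicates 1 and 2 it was 4 and 2. Over these 3 settings the share of all coding genes ran from 26.6% to 27.5%. Replicate 2 lost MetRS-m, at rank 5008 there, and MetRS, at rank 6005, and gained ThrRS. Replicates 1 and 3 lost no bound member. Dividing by the median of each whole list in place of the shared peaks set the median relative signal over bound members to 3.86, and moved all 17 single values by the construction of the divisor. The number of bound members with ATCGATA at the strongest summit was 3 within 100 bp of the summit, and 2 with the summits of replicate 1 or of replicate 3. The share over all summits was not counted at these settings, and the 15.2% given above holds for 50 bp around the pooled summits alone. A wider window can hold more words at any summit, so these counts are not a result about the members. The cause of the replicate differences was not tested. The members bound otherwise ranged from 12 (stronger peaks alone, split at their median, beside 15.6% of coding genes) to 20 (strongest of replicate 3, beside 26.6%). GlnRS, GluProRS and MetRS were lost when a summit counted for its nearest TSS alone (14, beside 20.2%), and AspRS when the 5′ end alone counted (16, beside 26.4%). LeuRS-m was gained at 1000 bp (18, beside 30.4%). The match to dm3 gave 19, but weak peaks matched several others. Leaving out each replicate in turn gave 28 to 32 members with a summit in every remaining relaxed list, against 28. Leaving out a list cannot lower this count, and the share of coding genes was counted for all 3 lists alone (42.4%). The median relative signal over bound members was then 1.04 to 1.14. Without PheRS-m, a check added after the data were seen, this median was 1.1. No paired analysis was possible because there is 1 group. The number of replicates, the unknown depth and the absence of a control group limit what these lists show.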

Other observations

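In mammals, 8 of the cytosolic synthetases sit in the multi-synthetase complex, and their fly counterparts are ArgRS, AspRS, GlnRS, GluProRS, IleRS, LeuRS, LysRS and MetRS. All 8 were bound in the reproducible set, beside 6 of the 12 other cytosolic genes and 28.0% of all coding genes. All 8 are head-to-head genes, a class bound at 52.3% over all coding genes. When a summit counts for its nearest TSS alone, GlnRS, GluProRS and MetRS are lost and 5 of the 8 remain. The other cytosolic genes then stay at 6 of 12, beside 20.2% of all coding genes. With the stronger peaks alone LeuRS and MetRS are lost, and AsnRS and alpha-PheRS among the others. AspRS is lost when the 5′ end alone counts. With the strongest peaks of replicate 2 MetRS is lost and ThrRS, outside the 8, is gained. Those of replicates 1 and 3 add GlyRS and AlaRS, also outside the 8. The grouping by complex was made after the values were seen, and no test was run on it. Their relative signals, from 0.716 at LeuRS to 1.33 at GlnRS, form a range that contains the values of the 6 other bound cytosolic genes. Of the scaffold genes of the complex, AIMP1 and AIMP2 were bound and AIMP3 was not. By structural family, 6 of 9 class I and 7 of 10 class II cytosolic genes were bound, beside the same 28.0%, with GluProRS, which holds both, also bound.

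The transfer RNA genes themselves were rarely near a reproducible summit. Of 290 nuclear transfer RNA genes, 9 (3.10%) had one within 500 bp of the start, beside 28.0% of coding genes. In the pooled list 74 (25.5%) had one, beside 55.2% of coding genes. The 9 genes shared 8 summits, 5 of which also lay within 500 bp of a coding TSS. The strongest was at tRNA:Ser-AGA-2-4, with rank 55 and a pooled signal of 1834.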
